A study of Homo sapiens with 32 samples.

Results

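The comparison described here asks how the transcriptional response to etoposide in U2OS cells heterozygous for the p53 mutation A347D, labelled p53(+/AD), differed from the response in p53(+/+) cells. U2OS is a human osteosarcoma line that carries wild-type p53, and the mutant line was engineered from it with CRISPR-Cas9. The 4 groups were heterozygous (HET) cells treated for 24 h with 20 µM etoposide, HET cells given DMSO for 24 h, wild-type (WT) cells treated for 24 h with 20 µM etoposide, and WT cells given DMSO for 24 h. Each group had 4 libraries, so 16 of the 32 libraries of the series entered. For every gene the response is etoposide minus DMSO on a log2 scale, and the response difference is the response in HET cells minus the response in WT cells. A positive difference therefore means a higher response in HET cells, which can be a stronger rise, a weaker fall, or a rise set against a fall. Of the 35587 genes in the expression matrix, 16259 reached 10 normalized counts in at least 4 of the 16 libraries and were tested, and 19328 were not. Replicates were plates grown separately. The labels do not say how many clones stand for each genotype, so the p-values measure the spread between plates, and the mutation and any other difference between the HET and WT lines cannot be told apart.

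Etoposide traps topoisomerase II on cut DNA and so leaves double-strand breaks, which activate p53. p53 binds DNA best as a tetramer, and A347D lies in its tetramerization domain. Its targets include inhibitors of the cell cycle, death genes, metabolic enzymes and secreted factors; through p21, the product of CDKN1A, it also lowers the many genes of DNA replication and mitosis that E2F and the DREAM complex control. DNA damage can separately raise interferon-stimulated genes, many of whose promoters hold the interferon-stimulated response element.

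The libraries held 8.05 to 20.62 M (mega) recovered counts in HET etoposide cells, 20.83 to 22.98 M in HET DMSO cells, 18.25 to 23.04 M in WT etoposide cells and 23.29 to 24.19 M in WT DMSO cells; the lowest was HET etoposide replicate 2. The osteoblast and mesenchymal list had 16 of 20 genes tested and summed to between 121240 and 236439 normalized counts in all 16 libraries, led by COL1A1, VIM, SPARC and FN1, while BGLAP, IBSP and TWIST1 stayed under 10 in the mean of each group. Epithelial markers summed to 23228 to 25665 in HET etoposide, 17266 to 24751 in HET DMSO, 42167 to 50504 in WT etoposide and 29503 to 39524 in WT DMSO cells, mostly from KRT17, KRT18 and KRT8. Markers of blood cells summed to 295 to 338 in HET etoposide, 89.2 to 110 in HET DMSO, 629 to 663 in WT etoposide and 156 to 213 in WT DMSO cells, with CD68 the highest. Endothelial markers summed to 1632 to 1737 in HET etoposide, 1566 to 2048 in HET DMSO, 2643 to 3192 in WT etoposide and 2153 to 2685 in WT DMSO cells. The part of these marker differences in the results below was not tested. The chi-square per degree of freedom between replicates was 1.99 to 11.54 in HET etoposide, 4 to 62.73 in HET DMSO, 5.53 to 26.71 in WT etoposide and 22.12 to 68.55 in WT DMSO cells, so no pair of replicates agreed within sampling noise, and the value also depends on depth. These are relative levels in bulk RNA, in which fewer cells of a kind and less RNA per cell cannot be told apart.

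The etoposide response differed between genotypes for 1193 genes, 7.34% of those tested, at an adjusted p under 0.05 and a difference of at least 1.5-fold. 696 genes (4.28%) responded higher in HET cells and 497 (3.06%) responded lower. The median difference over all genes tested was −0.02 on the log2 scale, with the 5th and 95th percentiles at −0.81 and 0.83. For scale, etoposide alone raised 3030 genes (18.6%) and lowered 2249 (13.8%) in HET cells, and raised 3593 (22.1%) and lowered 2566 (15.8%) in WT cells. HET and WT cells also differed before treatment. In DMSO, 3080 genes (18.9%) were higher and 2790 (17.2%) lower in HET cells (36.1% in either direction). In etoposide 2130 (13.1%) were higher and 2328 (14.3%) lower. With a trend on GC content and length removed across groups, 3850 genes differed in DMSO, beside 5870 here. All 5 comparisons come from the same 16 libraries. The DMSO levels enter both the response difference and the genotype difference in DMSO, so these are linked by arithmetic. Of the 696 genes with a higher response, 487 (70%) were lower in HET cells in DMSO, beside 17.2% of all genes. Of the 497 with a lower response, 286 (57.5%) were higher in HET cells in DMSO, beside 18.9% of all genes. As a description of the form the differences took, the 696 genes with a higher response included 197 that rose in HET cells and did not pass in WT cells, 157 that fell in WT cells and did not pass in HET cells, 143 that rose in both, 113 that fell in both, 24 that rose in HET and fell in WT cells, and 62 that passed in neither. The 497 with a lower response included 158 that rose in WT cells and did not pass in HET cells, 127 that rose in both, 92 that fell in HET cells and did not pass in WT cells, 52 that fell in both, 18 that fell in HET and rose in WT cells, and 50 that passed in neither. 463 of the higher and 318 of the lower genes passed also in each of the 16 fits that left out one library. Leaving out WT DMSO replicate 2 changed the count of lower genes most, to 712.

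**Figure D1:**
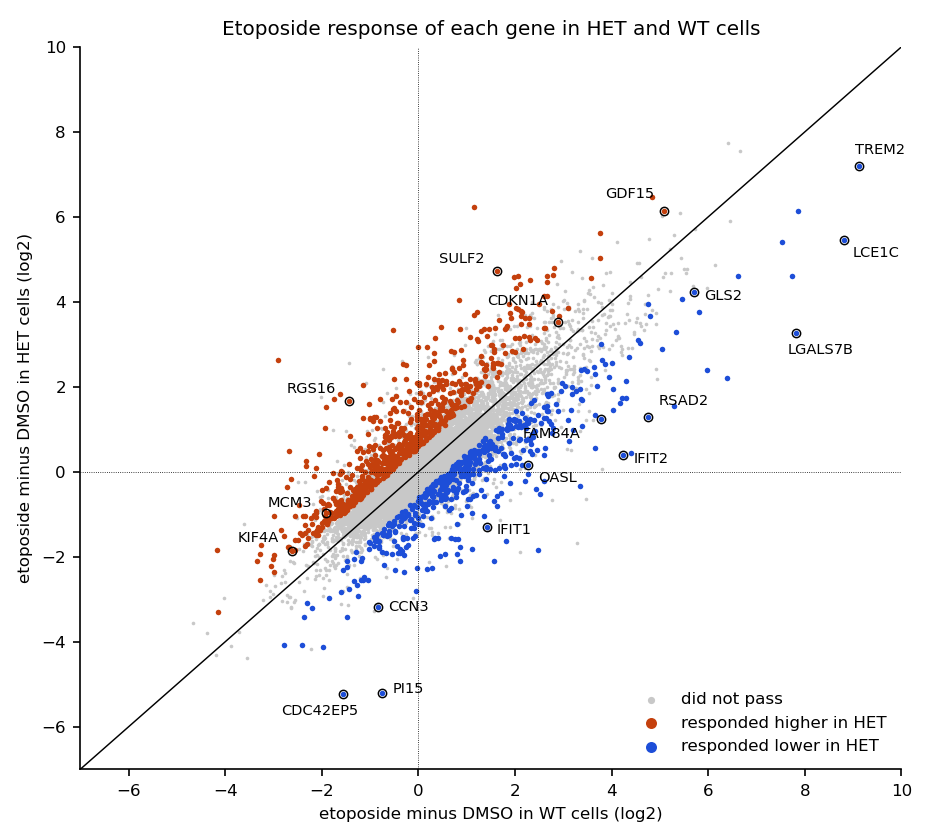
Etoposide response of the 16259 tested genes, with the response in WT cells on the x axis and the response in HET cells on the y axis (log2, etoposide minus DMSO, 4 libraries per group). Orange points above the diagonal include the 696 genes that responded higher in HET cells, and blue points below it the 497 that responded lower. The colours use rounded values, so genes just under 1.5-fold, such as RFC2 at 0.58, are coloured too. CCN3 and PI15 lie far below the diagonal and below 0 in HET cells, and IFIT2 at 0.40 in HET against 4.24 in WT cells.

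Interferon-stimulated genes held some of the most negative differences. Of the 47 tested, 7 responded lower in HET cells (IFIT2, RSAD2, IFIT1, DDX60, OASL, IFIT3 and ISG15) and 1 higher (IFI44L), beside the 3.06% and 4.28% of all genes, and the list's median difference was −0.08, beside −0.02 over all genes, and 0.01 on the deposited scale. Etoposide raised 23 of the 47 in HET cells and 26 in WT cells, beside 18.6% and 22.1% of all genes. IFIT1, IFIT2 and IFIT3 encode neighbouring proteins of one family on chromosome 10 that bind foreign RNA. IFIT2 (chr10:89283694-89309276, plus strand, GRCh38) was at 40.6, 55.4, 28.4 and 41 normalized counts in HET etoposide cells and at 35.9, 46, 24.5 and 20.4 in HET DMSO cells. In WT cells it was at 1032, 1137, 978 and 1101 with etoposide and at 30.5, 92, 51.2 and 64.3 in DMSO. The 4 WT etoposide libraries thus stood alone, far above the other 12, which overlapped. The response was 1.32-fold and did not pass in HET cells, against 18.9-fold in WT cells, and the difference was −3.83 ± 0.40 (log2, SE; limma adjusted p = 1.06e-05).

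IFIT1 (chr10:89392546-89406486, plus strand) moved in opposite directions. Its levels were 112, 107, 111 and 84.3 in HET etoposide and 243, 302, 240 and 246 in HET DMSO cells. WT etoposide cells had 533, 505, 482 and 487, and WT DMSO cells 215, 314, 98.5 and 187. Etoposide libraries lay below every DMSO library in HET cells and above every DMSO library in WT cells, and the difference was −2.72 ± 0.32 (limma adjusted p = 3.37e-05). OASL, an oligoadenylate synthetase-like protein, was at 211, 211, 221 and 208 in HET etoposide and 175, 189, 220 and 179 in HET DMSO cells. Its levels in WT cells were 1880, 1704, 1812 and 1614 with etoposide and 283, 347, 472 and 366 in DMSO. HET cells treated and untreated overlapped, while WT etoposide libraries all exceeded WT DMSO libraries; the difference was −2.11 ± 0.17 (limma adjusted p = 6.61e-07). RSAD2, the antiviral enzyme viperin, was scarce: 5.08, 4.1, 6.49 and 6.3 normalized counts in HET etoposide, 0, 6.07, 2.62 and 0.885 in HET DMSO, 47, 58.2, 42.7 and 34.7 in WT etoposide and 0, 1.77, 1.93 and 0 in WT DMSO cells. Its difference of −3.48 ± 0.72 depends on the pseudocount of 1 and was −2.53 with a pseudocount of 5. RSAD2 reached the filter only through the WT etoposide libraries, which had to be high for it to be tested, so no p is given. For the same reason its place among the lower genes above supports nothing.

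For the other 3 genes the highest mean was also that of WT etoposide cells. IFIT3 averaged 116 in HET etoposide and 24.5 in HET DMSO cells, against 1339 in WT etoposide and 89.6 in WT DMSO cells, a difference of −1.71. ISG15, a ubiquitin-like modifier, averaged 466 and 205 in HET cells with etoposide and DMSO, against 3339 and 509 in WT cells with etoposide and DMSO, a difference of −1.52. DDX60, a helicase-related antiviral factor, averaged 43.4 in HET etoposide and 53.3 in HET DMSO cells, against 119 in WT etoposide and 31.7 in WT DMSO cells, a difference of −2.17. IFIT3 and ISG15 rose with etoposide in both genotypes, and DDX60 rose in WT cells and did not pass in HET cells.

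IFI44L was the exception among the 8, with 87.2, 69.7, 61.7 and 68.5 in HET etoposide, 21.9, 25.2, 13.1 and 17.7 in HET DMSO, 37, 39.1, 27.9 and 44.3 in WT etoposide and 14.3, 27.4, 25.1 and 27.6 in WT DMSO cells. The HET etoposide libraries were above all others, and the difference was 1.20 ± 0.33 (limma adjusted p = 0.0267). It passed in 12 of the 16 fits that left out one library; the value was 1.17 without HET DMSO replicate 4, 1.11 without HET etoposide replicate 1, 1.12 without WT DMSO replicate 4 and 1.08 without WT etoposide replicate 3. It did not pass without the 3 DMSO libraries that stood apart in their groups (1.11), in a fit to all 32 libraries or with no filter. IRF9, part of the complex that carries the interferon signal, and the interferon-stimulated genes MX1, OAS1 and IFI6 did not pass, at 0.09, 0.23, 0.72 and −0.20. All tested interferon-stimulated genes that did not pass ran from −1.91 to 1.05. At an unadjusted limma p under 0.05, 6 of the 47 tested were higher and 16 lower. Over all genes, 3753 of 16259 were under that p in either direction. IFNB1 had no count in any of the 16 libraries, for which 3 counts correspond to 2.363 to 6.151 normalized counts, and IRF7 had group means of 2.70 in HET etoposide, 0.219 in HET DMSO, 2.76 in WT etoposide and 0.463 in WT DMSO cells and was not tested.

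Among 20 tested genes of interferon production and sensing, 1 responded lower and none higher, a share near the 3.06% of all genes. In the fit to all 32 libraries it did not pass. TLR3, a receptor for double-stranded RNA and also a p53 target, was at 94, 80, 75.5 and 102 in HET etoposide and 28, 23.4, 24.5 and 28.3 in HET DMSO cells. Levels in WT cells were 132, 145, 118 and 123 in WT etoposide and 8.58, 19.5, 4.83 and 21.4 in WT DMSO cells. It rose in both genotypes, from a higher start in HET cells, with a difference of −1.65 ± 0.43 (limma adjusted p = 0.0206). The genotype difference in etoposide, −0.56 ± 0.31, did not pass (limma adjusted p = 0.133). TMEM173, which encodes the adaptor STING, averaged 127 in HET etoposide and 51.4 in HET DMSO cells, against 701 in WT etoposide and 311 in WT DMSO cells. It was lower in HET cells under both treatments, but its response difference was 0.12 and did not pass. For the genotypes outside this comparison, IFIT2 averaged 413 with etoposide and 110 in DMSO in p53 knockout cells, and 739 and 33.3 in p53(AD/AD) cells; these levels were not compared by a test here.

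**Figure D2:**
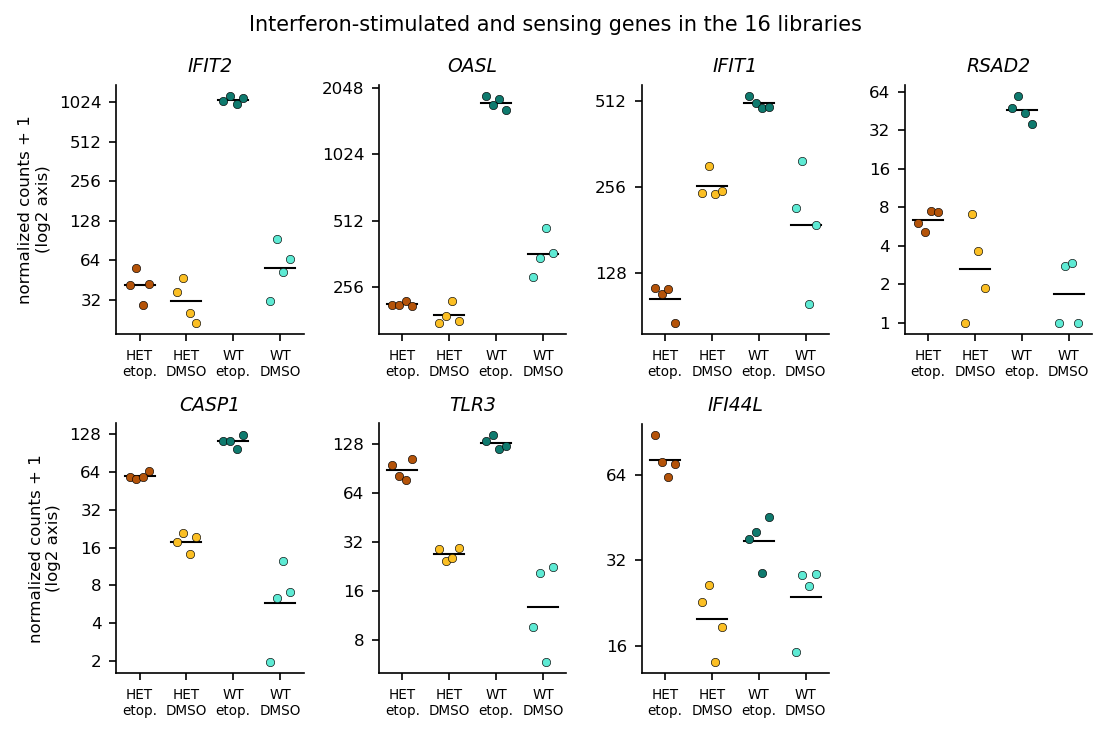
Normalized counts plus 1 on a log2 axis for 7 interferon-related genes in each of the 16 libraries; points are libraries, bars are means on the log scale, and the groups run HET etoposide, HET DMSO, WT etoposide, WT DMSO. For IFIT2, OASL and RSAD2 the 4 WT etoposide libraries stand above the other 12, while for IFI44L the 4 WT etoposide libraries lie below the 4 HET etoposide libraries.

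Promoter stretches of IFIT1 and IFIT3 are shown because the interferon-stimulated response element is what the group is known for. Its core, a pair of GAAA words with any 2 bases between them, was sought on both strands in RefSeq windows from 250 bases before to 50 after each gene's start (GRCh38.p14). It occurred in 3.65% of 27305 promoters, in 2.81% of the tested genes with a promoter entry (331 of 11783), and in 26 of the 37 interferon-stimulated genes with an entry (70.3%). Among the genes with a lower response, 4 of 5 with an entry held it, as did 21 of 31 that did not pass. Stretches before the RefSeq start are printed on the gene's strand, 5′ to 3′, with the core in capitals, which reads as a pair of TTTC words on the reverse strand. They lie at chr10:89392482-89392554 (plus strand) for IFIT1 and chr10:89327816-89327909 (plus) for IFIT3. Gene positions given in the text are from GENCODE, in which IFIT1 starts inside its printed stretch.
IFIT1: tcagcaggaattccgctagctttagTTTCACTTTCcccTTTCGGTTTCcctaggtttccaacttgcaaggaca
IFIT3: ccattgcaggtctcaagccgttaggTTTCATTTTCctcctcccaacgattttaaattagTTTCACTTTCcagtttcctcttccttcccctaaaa
The core stood in the window of IFI44L, which responded higher, as well as in those of most genes that did not pass.

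Genes of S phase and DNA replication responded higher in HET cells, in that most fell less. 21 of the 53 tested passed as higher and none as lower, beside 4.28% and 3.06% of all genes (at an unadjusted limma p under 0.05, 39 were higher and 0 lower); the median difference was 0.55, beside −0.02, and 50 of the 53 were above 0. Over all 16259 genes tested, 3753 had a response difference at an unadjusted limma p under 0.05, in either direction. Etoposide lowered 21 and raised 3 of the 53 in HET cells, and lowered 38 and raised 2 in WT cells, with median responses of −0.45 and −0.96. Of all genes it lowered 13.8% and raised 18.6% in HET cells, and lowered 15.8% and raised 22.1% in WT cells. The count of higher genes was 21 without the 3 DMSO libraries that stood apart in their groups (HET DMSO replicates 2 and 3, WT DMSO replicate 3), 20 without the shallow HET etoposide replicate 2 and 14 in a fit to all 32 libraries. In pairs with other WT DMSO libraries, replicate 3 had a chi-square per degree of freedom of 49.31 to 67.93. The range for WT DMSO replicate 2, which was kept, was 40.46 to 68.55. MCM3, a subunit of the replicative helicase, was at 2410, 2280, 2314 and 2327 in HET etoposide and 4545, 4640, 4631 and 4619 in HET DMSO cells. In WT cells it was at 1213, 1361, 1251 and 1211 with etoposide and 4340, 4595, 5409 and 4579 in DMSO. DMSO levels overlapped between genotypes, whereas every HET etoposide library exceeded every WT etoposide library; MCM3 fell 1.98-fold in HET and 3.75-fold in WT cells, a difference of 0.92 ± 0.10 (limma adjusted p = 1.37e-05).

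GINS2, part of the GINS complex of the same helicase, had the largest difference of the list at 1.13 ± 0.15 (limma adjusted p = 1.12e-04). Its levels were 1047, 1117, 1042 and 930 in HET etoposide, 2031, 2248, 2432 and 2123 in HET DMSO, 446, 424, 503 and 377 in WT etoposide and 1759, 1862, 2407 and 2167 in WT DMSO cells. POLA1, the catalytic subunit of the polymerase that starts new strands, was at 227, 250, 246 and 225 in HET etoposide, 645, 822, 557 and 681 in HET DMSO, 123, 157, 115 and 120 in WT etoposide and 577, 698, 890 and 613 in WT DMSO cells, with a difference of 0.92 ± 0.20 (limma adjusted p = 0.0057). Both genes overlapped between genotypes in DMSO and did not overlap in etoposide. E2F1, the transcription factor that drives many of these genes, was at 1440, 1431, 1612 and 1539 in HET etoposide and 2054, 1787, 2550 and 2148 in HET DMSO cells. Wild-type levels were 993, 867, 1104 and 970 in WT etoposide and 2546, 1905, 2061 and 2486 in WT DMSO cells. It fell 2.28-fold in WT cells, while the 1.41-fold lower level in HET cells did not reach 1.5-fold; the difference was 0.69 ± 0.16 (limma adjusted p = 0.00905). The helicase genes MCM4, MCM6, MCM7 and MCM5 had differences of 0.90, 0.77, 0.66 and 0.66, the chromatin assembly and methylation factors UHRF1, CHAF1A and DNMT1 of 0.91, 0.88 and 0.78, and the primase genes PRIM1 and PRIM2 of 0.66 and 0.63. CLSPN, an adaptor of checkpoint kinase signalling, rose in HET cells by 0.91 and did not pass in WT cells at 0.08. PCNA, a sliding clamp that is also a p53 target, rose in both genotypes and did not pass for a difference in response (0.06 ± 0.10; limma adjusted p = 0.767).

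**Figure D3:**
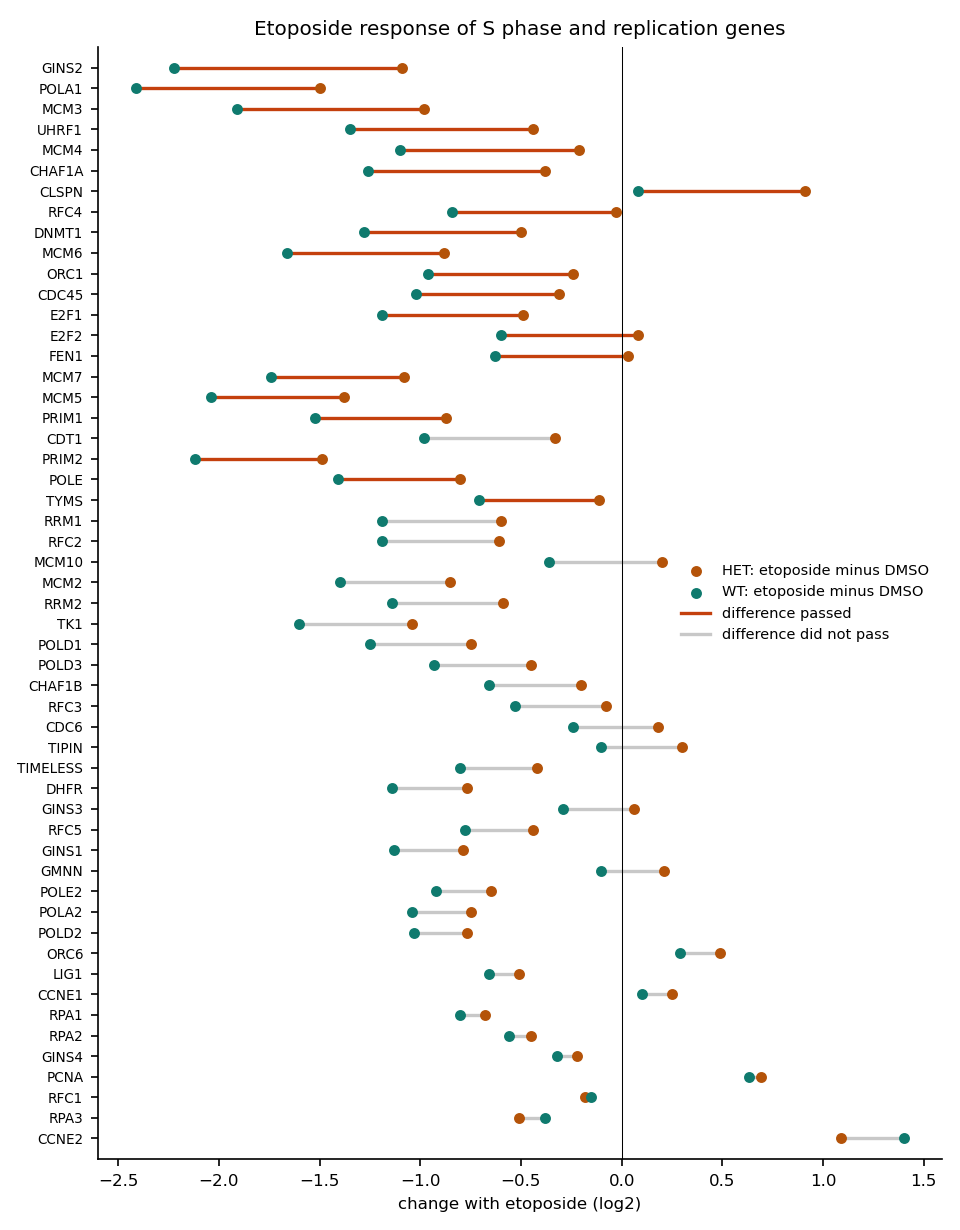
Change with etoposide (log2, x axis) of the 53 tested S phase and replication genes, one per line, in HET cells (brown) and WT cells (green), ordered by the difference. Red lines mark the 21 genes whose difference passed, from GINS2 at 1.13 at the top; in 50 of 53 genes the HET point lies to the right of the WT point.

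E2F sites are shown for the same reason. The words TTTCCCGC, TTTGGCGC, TTTCGCGC and TTTGCCGC, sought on both strands, occurred in 3.33% of all promoters, in 4.96% of tested genes with an entry and in 22 of 45 S phase genes with an entry (48.9%). Among S phase genes that responded higher, 12 of 19 held a word, and among those that did not pass, 10 of 26. 4 stretches before the RefSeq start are printed as above, at chr6:52284884-52284941 (minus strand) for MCM3, chr2:135876497-135876554 (minus) for MCM6, chrX:24693756-24693813 (plus) for POLA1 and chr20:33686386-33686443 (minus) for E2F1. That of E2F1 overlaps the gene as placed by GENCODE. In MCM6 a word on each strand overlaps the other.
MCM3: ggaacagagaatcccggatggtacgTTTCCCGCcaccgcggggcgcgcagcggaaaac
MCM6: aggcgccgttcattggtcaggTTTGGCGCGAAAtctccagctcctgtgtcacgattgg
POLA1: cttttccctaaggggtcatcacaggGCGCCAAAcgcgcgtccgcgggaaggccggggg
E2F1: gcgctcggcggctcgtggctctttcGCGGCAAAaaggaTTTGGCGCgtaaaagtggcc
A match is a run of letters, not a measured site.

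Genes of G2 and mitosis showed a smaller median difference, mostly of the same sign. Of the 52 tested, 38 were above 0, while CENPE and HMMR, at −1.02 and −0.75, did not pass. 13 of 52 passed as higher and none as lower, beside 4.28% and 3.06% of all genes (28 and 0 at an unadjusted limma p under 0.05), with a median difference of 0.42; etoposide lowered 39 of them in HET cells and 40 in WT cells, with median responses of −0.97 and −1.37, and raised none. Over all genes, 3753 of 16259 were under that unadjusted p in either direction. Etoposide lowered 13.8% of all genes in HET and 15.8% in WT cells, and raised 18.6% and 22.1%. The count of higher genes in the list was 19 without the 3 DMSO libraries that stood apart, 7 in a fit to all 32 libraries and 6 after quantile normalization. MKI67, the proliferation antigen Ki-67, was at 1917, 1890, 1909 and 2013 in HET etoposide and 3852, 3489, 3320 and 4561 in HET DMSO cells. In WT libraries the values were 1827, 1872, 1783 and 1899 in WT etoposide and 6469, 6839, 5996 and 6329 in WT DMSO cells. Here the genotypes differed in DMSO, where every HET library was lower, and overlapped in etoposide; the difference was 0.83 ± 0.12 (limma adjusted p = 2.21e-04). KIF4A, a kinesin of the spindle midzone, had the other form, with 508, 472, 474 and 448 in HET etoposide, 1639, 1978, 1634 and 1696 in HET DMSO, 318, 314, 326 and 334 in WT etoposide and 1650, 2059, 2648 and 1766 in WT DMSO cells. DMSO libraries overlapped and etoposide libraries did not, and the difference was 0.76 ± 0.16 (limma adjusted p = 0.00555). The kinases PLK1, AURKA, AURKB, BUB1 and BUB1B and the transcription factor FOXM1 also passed, between 0.59 and 0.76. In homologous recombination and the Fanconi pathway 5 of 37 passed as higher and none as lower, beside 4.28% and 3.06% of all genes (13 and 0 at an unadjusted limma p under 0.05), with a median of 0.24. FANCG, a subunit of the Fanconi core complex, was at 908, 984, 1040 and 978 in HET etoposide and 1744, 1569, 2046 and 1688 in HET DMSO cells. The WT values were 1302, 1134, 1426 and 1265 in WT etoposide and 3902, 3351, 3558 and 3874 in WT DMSO cells. Its HET libraries were all lower than WT libraries under the same treatment, by more in DMSO, and the difference was 0.68 ± 0.13 (limma adjusted p = 0.00234). The count in this list was 3 in the fit to all 32 libraries, 3 on the deposited scale, 2 with total-count scaling and 2 after quantile normalization.

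Targets of p53 did not move as one group. CDKN1A (chr6:36676460-36687339, plus strand), which encodes p21, was at 16911, 17414, 19206 and 17990 in HET etoposide and 1488, 1385, 1748 and 1583 in HET DMSO cells. WT cells had 34534, 31183, 35918 and 34809 with etoposide and 5513, 3830, 4426 and 4833 in DMSO. CDKN1A was therefore lower in every HET library than in any WT library under the same treatment, and yet rose by more in HET cells, 11.5-fold against 7.39-fold. The difference was 0.64 ± 0.14 (limma adjusted p = 0.00699) and was 0.56, under 1.5-fold, without WT DMSO replicate 1. GDF15, a secreted stress cytokine that ATF4 also controls, had the same form with a wider gap: 1488, 1724, 1782 and 1632 in HET etoposide, 25.4, 15.6, 23.6 and 26.5 in HET DMSO, 8429, 7366, 8888 and 8137 in WT etoposide and 208, 221, 284 and 260 in WT DMSO cells. It rose 70.8-fold in HET and 33.8-fold in WT cells, a difference of 1.07 ± 0.20 (limma adjusted p = 0.00181). In the list of arrest genes 2 of 15 passed as higher, CDKN1A and PRDM1, and 2 as lower, TP53INP1 and TOB1, beside 4.28% and 3.06% of all genes, with a median of −0.13. TOB1 passed in only 4 of the 16 fits that left out one library.

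The best-known targets for feedback and death did not pass as different in response. MDM2, the ubiquitin ligase that degrades p53, was at 1924, 1927, 1682 and 2077 in HET etoposide and 415, 436, 325 and 433 in HET DMSO cells. WT levels were 1687, 1963, 1623 and 1813 in WT etoposide and 354, 388, 188 and 256 in WT DMSO cells. Both genotypes overlapped in etoposide, and the difference was −0.38 ± 0.24 (limma adjusted p = 0.376). The differences of the BH3-only genes BBC3 (PUMA) and PMAIP1 (NOXA), of BAX and of the death receptor FAS were −0.02 ± 0.13, −0.30 ± 0.25, 0.04 ± 0.13 and 0.08 ± 0.30, none of which passed, although all 4 rose in both genotypes. For MDM2, PMAIP1 and FAS a 1.5-fold difference lies within 2 SE of the value. BBC3 averaged 1114 in HET etoposide and 400 in HET DMSO cells, against 1490 in WT etoposide and 526 in WT DMSO cells. Of 16 death genes, 3 responded lower and none higher, beside 3.06% and 4.28% of all genes, with a median of −0.14. CASP1, the protease of the inflammasome, was at 57.6, 55.4, 57.6 and 64.6 in HET etoposide and 16.6, 20, 13.1 and 18.6 in HET DMSO cells. Levels in WT cells were 113, 113, 97.5 and 126 in WT etoposide and 0.953, 5.31, 11.6 and 6.13 in WT DMSO cells. It started higher and ended lower in HET cells, a difference of −2.56 ± 0.52 (limma adjusted p = 0.004). In a list of 34 genes of mitochondrial death 1 passed as lower, the BH3-only gene BIK at −0.96, a share near the 3.06% of all genes. BIK did not pass with a pseudocount of 5 (−0.70), with no filter, on the deposited scale, with all 32 libraries or without the 3 DMSO libraries that stood apart. It passed in 12 of 16 fits that left out one library, and was −0.95 and −0.89 without HET etoposide replicates 3 and 4 and −0.89 and −0.86 without WT etoposide replicates 1 and 3.

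In the metabolic list of p53 targets 5 of 22 were lower and 1 higher, beside 3.06% lower and 4.28% higher of all genes, with a median of −0.24, and among secreted and surface targets 4 of 18 were lower and 2 higher, with a median of −0.06, or 0.06 after quantile normalization. GLS2, a mitochondrial glutaminase, was at 124, 137, 144 and 136 in HET etoposide and 5.25, 5.21, 8.75 and 6.19 in HET DMSO cells. Wild-type levels were 408, 354, 435 and 381 in WT etoposide and 3.81, 9.73, 6.76 and 7.15 in WT DMSO cells. DMSO levels overlapped and etoposide levels did not; GLS2 rose 18.8-fold in HET and 52.2-fold in WT cells, a difference of −1.47 ± 0.29 (limma adjusted p = 0.00347). TP53I3, a quinone oxidoreductase, was at 2500, 2571, 2404 and 2422 in HET etoposide and 1830, 1916, 1967 and 1841 in HET DMSO cells. In WT libraries the values were 4698, 4559, 4844 and 4831 in WT etoposide and 1600, 1578, 2056 and 1698 in WT DMSO cells. The 1.31-fold higher level in HET cells did not pass, against a 2.75-fold rise in WT cells, and the difference was −1.07 ± 0.11 (limma adjusted p = 7.81e-06). FUCA1, a lysosomal fucosidase, was at 1813, 1954, 1730 and 1722 in HET etoposide and 815, 832, 818 and 788 in HET DMSO cells. The WT values were 2113, 2071, 1975 and 1929 in WT etoposide and 375, 437, 454 and 412 in WT DMSO cells. Its etoposide levels overlapped between genotypes and its DMSO levels were all higher in HET cells, a difference of −1.12 ± 0.10 (limma adjusted p = 2.29e-06).

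TREM2, a surface receptor of myeloid cells, was at 260, 246, 312 and 277 in HET etoposide and 1296, 1201, 1323 and 1020 in WT etoposide cells, and at no more than 2.86 in any DMSO library of either genotype. Its etoposide level was 4.40-fold lower in HET cells, and the difference of −1.94 ± 0.40 (limma adjusted p = 0.00426) rests on DMSO levels near 0. ANKRA2, TGFA and TP53INP1 had differences of −1.08, −1.05 and −1.05, and their mean levels were higher in HET than in WT cells in DMSO (134 against 78.8, 1416 against 773 and 607 against 315), while their etoposide levels did not pass as different.

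**Figure D4:**
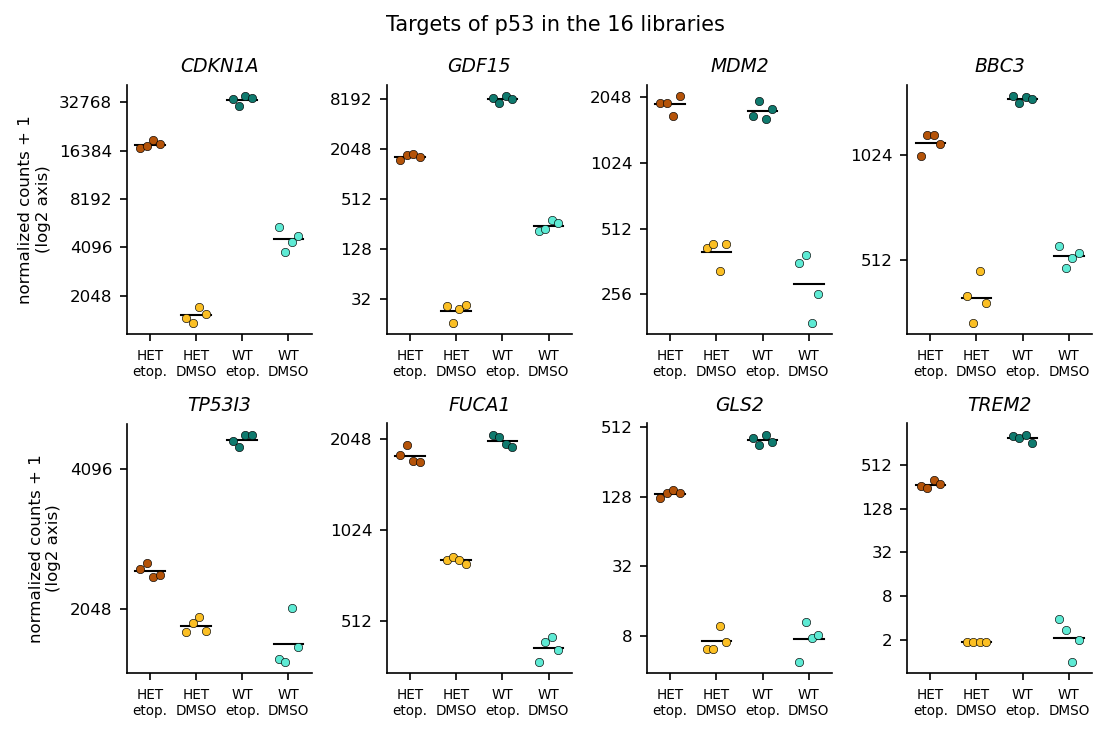
Normalized counts plus 1 on a log2 axis for 8 targets of p53 in each of the 16 libraries; points are libraries, bars are means on the log scale, and the groups run HET etoposide, HET DMSO, WT etoposide, WT DMSO. CDKN1A and GDF15 are lower in HET cells under both treatments and rise by more; TP53I3, GLS2 and TREM2 end lower in HET etoposide cells; MDM2 overlaps between genotypes in etoposide.

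Some of the most negative differences were those of genes at or near 0 in DMSO. LGALS7B (chr19:38789211-38791749, plus strand), which encodes galectin-7, was at 7.62, 12.3, 8.11 and 7.09 in HET etoposide and 251, 218, 176 and 259 in WT etoposide cells, and at 0 in all 8 DMSO libraries. In etoposide it was 23.4-fold lower in HET cells. LGALS7B reached the filter only through the WT etoposide libraries, which had to be high for it to be tested, so no p is given. LCE1C, a late cornified envelope gene on chromosome 1, was at 33, 49.2, 44.6 and 46.5 in HET etoposide and 769, 652, 763 and 644 in WT etoposide cells, with no count in HET DMSO and 3 counts in all of the WT DMSO libraries. LCE1C was 16.1-fold lower in HET cells in etoposide, and its neighbour LCE1F 14.6-fold lower. The fitted response differences of LGALS7B, LCE1C and LCE1F (−4.55, −3.36 and −3.13) depend on the pseudocount and were −4.07, −3.70 and −3.43 with a pseudocount of 5. LGALS7 and LGALS7B are near-identical copies, so the split of reads between them is uncertain, as it may be within the LCE1 cluster. CDC42EP5 was at 0 in all 4 HET etoposide libraries, 54.2, 18.2, 87.5 and 20.4 in HET DMSO, 55.4, 45.2, 58.4 and 129 in WT etoposide and 93.4, 180, 257 and 349 in WT DMSO cells; its fitted difference of −3.67 was −1.58, and did not pass, with a pseudocount of 5.

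Most negative differences, 286 of 497, went with a higher level in HET than in WT cells in DMSO, beside 18.9% of all genes. Both rest on the same DMSO levels, so arithmetic links them. CCN3, a matricellular signalling protein, was at 997, 1031, 932 and 962 in HET etoposide and 8699, 9132, 8429 and 9365 in HET DMSO cells. WT levels were 1139, 1149, 1028 and 1018 in WT etoposide and 1854, 2114, 1773 and 2007 in WT DMSO cells. HET DMSO libraries stood above all others; CCN3 fell 9.08-fold in HET and 1.79-fold in WT cells, a difference of −2.35 ± 0.10 (limma adjusted p = 2.72e-10). PI15, a protease inhibitor, was at 684, 921, 410 and 706 in HET DMSO cells, against at most 44.2 in WT DMSO cells, and at 20.3, 16.4, 13 and 18.1 in HET etoposide and 21, 24.1, 19.2 and 11.6 in WT etoposide cells, a difference of −4.44 ± 0.41 (limma adjusted p = 2.29e-06). CEBPD, a transcription factor of inflammation, was at 365, 394, 413 and 422 in HET etoposide and 1248, 1103, 1326 and 1107 in HET DMSO cells. Levels in WT cells were 381, 326, 381 and 335 in WT etoposide and 324, 257, 274 and 285 in WT DMSO cells. It fell in HET cells and did not pass in WT cells, a difference of −1.90 ± 0.13 (limma adjusted p = 1.85e-07).

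EFNB1, a membrane ligand of Eph receptors, was at 1626, 1608, 1816 and 1724 in HET etoposide and 1086, 827, 1018 and 938 in HET DMSO cells. Wild-type levels were 2796, 2566, 2685 and 2585 in WT etoposide and 498, 515, 525 and 511 in WT DMSO cells, a difference of −1.56 ± 0.11 (limma adjusted p = 2.65e-07). HET libraries of EFNB1 were higher in DMSO and lower in etoposide. FAM84A had the same form, with 649, 767, 721 and 711 in HET etoposide, 312, 278, 302 and 308 in HET DMSO, 1015, 992, 1058 and 973 in WT etoposide and 75.3, 68.1, 72.4 and 72.5 in WT DMSO cells. HET libraries again did not overlap WT libraries under either treatment, and the difference was −2.55 ± 0.11 (limma adjusted p = 2.72e-10). SYT8, a synaptotagmin, and KCNJ2, a potassium channel, fell in HET cells and rose in WT cells, with differences of −2.93 ± 0.24 (limma adjusted p = 8.18e-07) and −2.95 ± 0.36 (limma adjusted p = 4.18e-05).

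Most positive differences, 487 of 696, likewise went with a lower level in HET than in WT cells in DMSO, against 17.2% of all genes. The same link by arithmetic holds. RGS16, which shuts off G-protein signals, was at 168, 189, 179 and 164 in HET etoposide and 44.6, 56.4, 63 and 56.6 in HET DMSO cells. In WT libraries the values were 533, 509, 590 and 547 in WT etoposide and 1208, 1468, 1815 and 1496 in WT DMSO cells. HET libraries were lower than WT libraries throughout; RGS16 rose 3.15-fold in HET cells and fell 2.72-fold in WT cells, a difference of 3.10 ± 0.17 (limma adjusted p = 6.09e-09). TGM2, a transglutaminase, was at 3099, 3233, 3628 and 3157 in HET etoposide and 327, 243, 388 and 312 in HET DMSO cells. The WT values were 6574, 6337, 6862 and 6778 in WT etoposide and 2534, 1970, 1970 and 2376 in WT DMSO cells. It rose 10.4-fold in HET and 3.02-fold in WT cells, a difference of 1.79 ± 0.17 (limma adjusted p = 2.29e-06). CPA4, a carboxypeptidase, was at 1763, 1772, 1815 and 1845 in HET etoposide, 185, 167, 193 and 174 in HET DMSO, 2186, 2126, 2111 and 2384 in WT etoposide and 1215, 763, 861 and 793 in WT DMSO cells, a difference of 2.02 ± 0.16 (limma adjusted p = 4.8e-07). The etoposide levels of CPA4 were close and its DMSO levels far apart.

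SULF2, a sulfatase that edits heparan sulfate, was at 84.7, 73.8, 55.2 and 54.4 in HET etoposide and 72.2, 89.3, 84.5 and 75.2 in WT etoposide cells, which overlap, and at 0.875, 0.868, 0.875 and 5.31 in HET DMSO and 31.5, 23, 26.1 and 21.4 in WT DMSO cells; the difference was 3.09 ± 0.45 (limma adjusted p = 2.32e-04), and 1.90 with a pseudocount of 5. IGFBP4, which binds insulin-like growth factors, averaged 9.46 in HET etoposide and 1.75 in HET DMSO cells, against 1710 in WT etoposide and 1696 in WT DMSO cells. Its difference of 2.07 ± 0.40 (limma adjusted p = 0.00292) is thus a change between levels that were both a small share of those in WT cells, with 39 counts in all of the HET etoposide and 8 in all of the HET DMSO libraries, and it was 1.10 with a pseudocount of 5. Among genes that passed with a group mean of at least 50, HSD17B8 and DSEL had the most positive differences, 5.54 ± 1.37 and 5.08 ± 1.53. Both also had wide spreads within groups. HSD17B8 ranged from 52.8 to 69 in HET etoposide, 1.77 to 47.2 in HET DMSO, 2.01 to 115 in WT etoposide and 24.8 to 221 in WT DMSO cells. DSEL was at 0, 91.1, 3.5 and 0 in HET DMSO cells, and its call held in 3 of 16 fits that left out one library, with values between 4.36 and 6.53.

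Stress and inflammatory genes were mixed. Of 32 ATF4 targets, which cells raise when amino acids are short or proteins misfold, 3 responded higher and 2 lower, beside 4.28% and 3.06% of all genes, with a median of 0.27 and 27 above 0. FGF21, a stress hormone, was at 27.1, 22.6, 26 and 29.1 in HET etoposide and 20.1, 13.9, 26.2 and 15 in HET DMSO cells. WT levels were 3.36, 4.01, 3.48 and 1.93 in WT etoposide and 37.2, 22.1, 17.4 and 28.6 in WT DMSO cells. The WT etoposide libraries were low alone, and the difference was 3.17 ± 0.37 (limma adjusted p = 3.04e-05). CHAC1, which degrades glutathione, rose in HET cells (1.83-fold) and did not pass in WT cells, a difference of 1.41 ± 0.19 (limma adjusted p = 1.22e-04). DDIT4, an inhibitor of mTORC1 and also a p53 target, was at 866, 882, 962 and 889 in HET etoposide and 3404, 3268, 3857 and 3316 in HET DMSO cells. Levels in WT cells were 1365, 1424, 1448 and 1661 in WT etoposide and 2162, 2036, 2229 and 2125 in WT DMSO cells. It was below its DMSO level in either genotype, and in HET cells it started higher and ended lower, a difference of −1.40 ± 0.11 (limma adjusted p = 4.43e-07).

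Of 30 NF-kB targets and cytokines, 27 rose in each genotype, beside 18.6% of all genes in HET and 22.1% in WT cells. The responses were close in the middle of the list, with median responses of 1.75 in both. In HET cells 3 responded higher and 2 lower, beside 4.28% and 3.06% of all genes. CCL2, a monocyte chemokine, was at 178, 166, 161 and 170 in HET etoposide and 60.3, 65.1, 62.1 and 73.5 in HET DMSO cells. Wild-type levels were 822, 710, 764 and 766 in WT etoposide and 597, 879, 784 and 939 in WT DMSO cells. It rose in HET cells and did not pass in WT cells, whose treated and untreated libraries overlapped, a difference of 1.41 ± 0.17 (limma adjusted p = 3.23e-05). CCL20, a chemokine for lymphocytes, was at 108, 86.1, 90.1 and 108 in HET etoposide and 14.9, 13, 14.9 and 20.4 in HET DMSO cells. In WT libraries the values were 29.4, 41.1, 35.7 and 40.5 in WT etoposide and 12.4, 23, 10.6 and 12.3 in WT DMSO cells, a difference of 1.25 ± 0.31 (limma adjusted p = 0.0141). SOD2, the mitochondrial superoxide dismutase, did not pass in HET cells and rose in WT cells, a difference of −1.21 ± 0.14 (limma adjusted p = 3.37e-05).

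**Figure D5:**
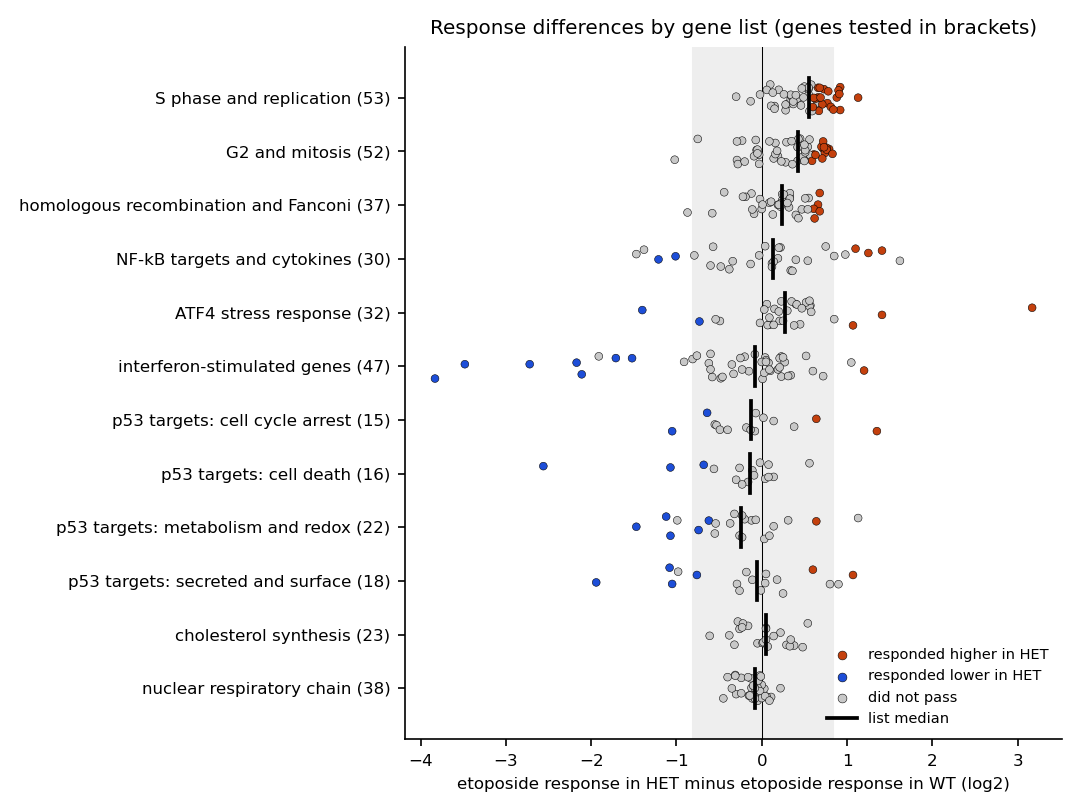
Response difference (log2, x axis) of each tested gene in 12 gene lists, one point per gene; black bars are list medians and the grey band spans the 5th to 95th percentile of all 16259 genes, −0.81 to 0.83. Genes of S phase lie mostly right of 0 around a median of 0.55, interferon-stimulated genes have a tail of 7 blue points down to −3.83, and no gene of cholesterol synthesis or of the nuclear respiratory chain passed.

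In 6 lists no gene passed in either direction: NRF2 targets (23 tested), cholesterol synthesis (23), glycolysis and hypoxia (31), genes encoded in mitochondrial DNA (13), nuclear genes of the respiratory chain (38) and blood cell markers (6). With voom on the recovered counts, too, none passed. Other settings gave calls in 4 of these lists. Among glycolysis and hypoxia genes 1 was higher and 2 lower without the 3 DMSO libraries that stood apart, and 1 was lower with total-count scaling, with quantile normalization and with the trend on GC content and length removed across groups. 1 NRF2 target and 1 blood cell marker were lower on the deposited scale, 1 gene of cholesterol synthesis was lower with that trend removed within groups, and 1 blood cell marker was higher with that trend removed within groups and without the 3 libraries. At an unadjusted limma p under 0.05 there were 1 higher and 0 lower among NRF2 targets, 5 and 1 in cholesterol synthesis, 6 and 6 in glycolysis and hypoxia, 0 and 0 among mitochondrially encoded genes, 0 and 6 in the respiratory chain and 1 and 1 among blood cell markers. Over all 16259 genes tested, 3753 were under that unadjusted p in either direction. The counts of the other lists, which passed by the main rule, stand beside 4.28% higher and 3.06% lower of all genes. Of p53 feedback regulators 1 of 9 was lower and none higher, and of p53 targets in DNA repair 1 of 10 was lower and none higher. In both lists the gene was TP53INP1, which is also in the arrest list. TP53I3 likewise counts in the death and metabolic lists, and GDF15 in the secreted and ATF4 lists. Replication histones had 2 of 19 higher and none lower. Matrix and collagen genes had 1 of 28 in each direction (FN1 and SPP1, also counted as mesenchymal markers), near the shares of all genes. The differences of the respiratory chain genes lay between −0.45 and 0.22, and those of the mitochondrially encoded genes between −0.16 and 0.22. Of 11 epithelial markers 3 were higher (KRT8 at 0.61, KRT18 at 0.83 and CLDN4 at 0.91) and 1 lower (KRT14 at −1.04), with a median of 0.58; with all 32 libraries 1 passed in each direction. Of 10 endothelial markers 2 were lower (KDR at −1.91 and ERG at −0.79) and none higher, although the median was 0.38. Of 16 osteoblast and mesenchymal markers 1 was higher (FN1 at 0.76) and 2 lower (SPP1 at −1.21 and CDH11 at −0.61), with a median of 0.30. CDH11 passed in only 6 of the 16 fits that left out one library. In the list of ER stress genes 1 of 23 responded lower and none higher, a share near the 3.06% of all genes. Among immediate-early genes 2 of 28 responded higher and 1 lower, beside 4.28% and 3.06% of all genes.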

How the data were processed

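The deposited matrix holds variance-stabilized expression on a log2 scale, one column per library; per the submitters' processing notes, kallisto and DESeq2 were used with GRCh38 (hg38), with versions not given in the sources used here. Mean signal per gene in the authors' deposited table served only to find the constants of the transformation, which was inverted to give normalized counts, and each library's whole counts were recovered to within 0.01. Genes that reached 10 normalized counts in 4 or more of the 16 libraries were tested with limma 3.58.1 in R 4.3.3, a moderated test with a trend, on log2(normalized count + 1). A gene passed at a Benjamini-Hochberg adjusted p under 0.05 and a change of at least 1.5-fold. Fold changes on this scale understate the change of low genes. The fit took 16 libraries because some DMSO libraries of another genotype stood apart and would have entered the pooled spread. The method was tested on simulated data. Genes were named by rule: the 10 largest differences each way among genes that passed with a group mean of at least 50, the 6 largest each way with a mean of at least 500 over the 16 libraries, the 4 largest each way with opposite responses that both passed, up to 3 each way per list, and 14 known genes, of which some are not reported here. Other list members given by level or difference alone were chosen after their values were seen. The members and lists were chosen with earlier results of these data known. Alternatives changed the pseudocount, filter, scaling, libraries, weights and block, and those for GC content and length and for the libraries that stood apart were chosen after seeing the data. Promoter sequences are from RefSeq (GRCh38.p14) and gene positions from GENCODE 29. The labels name no molecular identifiers, so limits from a count of 0 cover counting error only.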

Additional observations from a re-analysis of the deposited data

Results flagged for a closer look

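In 17 of 333 groups of 4 libraries tested among the named genes, 1 library lay far from the other 3 by Dixon's criterion, which chance gives in about 1 group in 20. HET etoposide replicate 3 had 266 normalized counts of ANKRA2 (306 to 312 in the others) and 1240 of FANCI, HET etoposide replicate 2 had 18.5 of HIST1H1E and HET etoposide replicate 1 had 87.2 of PRDM1. HET DMSO replicate 2 had 534 of CDC25C, 91.1 of DSEL, 302 of IFIT1 and 3841 of PCNA. WT etoposide replicate 4 had 129 of CDC42EP5 and 115 of HSD17B8, WT etoposide replicate 2 had 323 of LCE1F and WT etoposide replicate 3 had 87.1 of SYT8. WT DMSO replicate 2 had 23 of CCL20, 5642 of KRT8, 48.7 of PTGS2 and 928 of TGFA and WT DMSO replicate 3 had 43.4 of FAS.

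Opposite responses in HET and WT cells, with a difference that passed limma's interaction test, were found for 13 named genes. The difference (log2) was −4.33 for APLN, −3.65 for PRAMEF20, −3.45 for FNDC1, −2.95 for KCNJ2, −2.93 for SYT8 and −2.72 for IFIT1. It was 5.54 for HSD17B8, 3.45 for KCNK10, 3.45 for SPATA31C2, 3.43 for IGSF21, 3.19 for FHOD3, 3.10 for RGS16 and 2.96 for EPHA3. PRAMEF20 and SPATA31C2 belong to families of near-identical copies, so their counts are uncertain. IGSF21 reached the filter only through WT DMSO cells and PRAMEF20 only through HET DMSO cells, so their tests support nothing here. With a pseudocount of 5 the differences were −3.08 for APLN, −2.14 for PRAMEF20, −2.37 for FNDC1, 4.51 for HSD17B8, 2.18 for SPATA31C2, 2.04 for IGSF21, 2.45 for FHOD3 and 2.31 for EPHA3.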

How the results depend on the processing

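Among the named genes, no response difference that passed changed sign under any alternative. The differences of BBC3, BAX and FAS, which did not pass, did change sign. Signs of the genes not named were not compared. Of 89 named genes that passed, 67 passed in all 16 fits that left out one library and 54 under every alternative; a fit to all 32 libraries lost the most, 22. Leaving out one library gave 584 to 752 genes with a higher and 398 to 712 with a lower response in HET cells, 5039 to 5430 changed by etoposide in HET cells, 5823 to 6482 in WT cells, 5005 to 6468 between genotypes in DMSO and 4001 to 4676 in etoposide. The 497 genes with a lower response became 299 with all 32 libraries, 753 with array weights and 784 with the trend on GC content and length removed within groups; the cause was not tested. Removing that trend across groups left 3850 genes between genotypes in DMSO, beside 5870 in the main fit. The trend went with genotype. Each library's deviation from the mean of the 16 correlated with GC content at −0.48 to 0 in HET libraries. In WT libraries the correlation was 0.05 to 0.47. Where the trend came from was not tested. With the adjusted p alone and no minimum fold, 8880 genes changed with etoposide in HET and 9726 in WT cells, and 9707 differed between genotypes in DMSO and 8408 in etoposide. Calls of genes named in the text also ended in some settings. With all 32 libraries these included TLR3, E2F1, POLA1, CCL20, ANKRA2 and KRT18. With quantile normalization they included KIF4A, FANCG and IGFBP4, and on the deposited scale IGFBP4 and GDF15. The call of TREM2 ended with voom, and that of HSD17B8 without the 3 DMSO libraries that stood apart. DSEL lost its call with no filter and with total-count scaling. TOB1 lost it in many settings, and passed in 4 of the 16 fits that left out one library. With a pseudocount of 5 the differences of CASP1, FGF21 and DSEL were −1.97, 2.31 and 3.76. Low genes are limited by depth: 3 counts were 2.363 to 6.151 normalized counts.

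Same-numbered libraries of different groups had correlations of −0.305 to 0.574, not all above 0.1, so the numbers were not taken as pairs; replicate 2 gave 0.102 to 0.574 in every pair of groups. With the replicate block 744 genes responded higher and 622 lower.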
